A study of Mus musculus with 21 samples.

Results

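The genes described here are the natriuretic peptide genes *Nppa* and *Nppb* and 5 further genes that are read together as the fetal gene program of the heart: *Myh6*, *Myh7*, *Acta1*, *Ankrd1* and *Xirp2*. They were chosen by gene symbol, each matched 1 row of the table, and these 7 genes are 7 of 56691 genes in the table and of the 13990 genes that passed the filter on low values. The study asked how doxorubicin (DOX), an anthracycline used against breast cancer, acts on the mouse heart with and without a tumor. Heart libraries came from mice that carried no tumor and were given no DOX (Control, n = 5), from mice without a tumor given DOX intraperitoneally at 5 mg/kg in each of 3 weekly injections (DOX, n = 5), from mice with a subcutaneous tumor of 4T1 cells and no DOX (Tb, n = 6), and from mice with that tumor and the same DOX course (Tb-DOX, n = 5). By the study's text, the Control and Tb mice received normal saline in place of DOX. 4T1 is a mouse breast cancer line, so the tumor state rests on 1 line, and the strain, sex and age of the mice are not given in the sources used here. Each group was sampled at 1 time, and the labels do not say that replicates came from separate mice, so a p-value measures the spread between these libraries.

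Atrial and B-type natriuretic peptide are hormones that heart muscle releases when it is stretched. They act through guanylyl cyclase receptors that make cGMP, which favours sodium excretion and vessel relaxation. In rodents the ventricle makes both peptides before birth and little of *Nppa* afterwards, and it switches its motor protein from beta myosin heavy chain (*Myh7*, slow) to alpha (*Myh6*, fast). Its skeletal actin (*Acta1*), made beside the cardiac form (*Actc1*), declines. A return of the early pattern in a loaded or failing heart is what the name fetal gene program stands for, and *Ankrd1* and *Xirp2* are muscle stress genes that are often measured beside it.

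Each library, by the methods one of poly(A) RNA, was read as 13521200 to 18601445 counts in genes. The sample labels name the tumor line as the source of every library, whereas the methods describe hearts, and the defining markers were those of heart muscle. The 6 cardiomyocyte markers summed to 22949 to 43388 CPM (counts scaled to an equal library total after TMM normalization), and their most abundant gene was *Tnnt2*, whereas 4 epithelial markers of the tumor line summed to 0.195 to 4.16 CPM. Libraries that stood apart in the genes described here were Tb replicate 5 (*Nppb*, *Ankrd1*, *Xirp2*), which was also the highest of all in the epithelial and endothelial sums, Tb replicate 6 (*Myh7*), DOX replicate 5 (*Xirp2*), Tb-DOX replicate 5 (*Nppb*), Tb replicate 2 (*Nppa*), Control replicate 3 (*Myh6*) and DOX replicate 2 (the ratio of *Nppb* to *Nppa*), and values without single libraries are given beside many of the results below. Other cell types were read by their markers: ventricular markers summed to 8439 to 16135 CPM, fibroblast markers to 731 to 1396, endothelial to 404 to 704, smooth muscle to 104 to 266 and slow skeletal muscle to 11.2 to 41.2. The T cell sum was 0.901 to 45.8 CPM outside DOX replicate 4 (310, almost all of it *Cd3e*), and germ cell markers, 0.676 to 2.37 CPM in Control and up to 1.57 in Tb-DOX, were at most 0.238 CPM in DOX and Tb. Fewer cells of a type and less RNA per cell cannot be told apart in whole tissue.

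*Nppa* and *Nppb* are neighbours on mouse chromosome 4 and were read side by side throughout. By the coordinates of the deposited table (GRCm39), *Nppb* (ENSMUSG00000029019) lies on the plus strand at chr4:148070245-148071662 and *Nppa* (ENSMUSG00000041616) on the same strand at chr4:148085179-148086536. *Acta1* lies on the minus strand at chr8:124618508-124621490. The RefSeq promoters of these 3 genes are shown because *Nppa* and *Acta1* went in opposite directions with DOX and *Nppb* is the close relative of *Nppa* that did not pass the same test. Each is the 150 bases before the RefSeq start in the gene's own direction on GRCm38.p6, a build whose coordinates are not those of the table, at chr4:148000572-148000721 (plus strand), chr4:147985750-147985899 (plus strand) and chr8:123894776-123894925 (minus strand), and capitals mark matches to the 4 motifs listed after them.
Nppa: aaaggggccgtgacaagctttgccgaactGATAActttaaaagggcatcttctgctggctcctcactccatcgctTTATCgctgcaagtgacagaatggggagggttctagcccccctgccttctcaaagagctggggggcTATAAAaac
Nppb: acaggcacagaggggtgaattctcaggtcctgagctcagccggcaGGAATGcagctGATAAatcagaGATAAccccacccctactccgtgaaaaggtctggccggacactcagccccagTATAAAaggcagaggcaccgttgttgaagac
Acta1: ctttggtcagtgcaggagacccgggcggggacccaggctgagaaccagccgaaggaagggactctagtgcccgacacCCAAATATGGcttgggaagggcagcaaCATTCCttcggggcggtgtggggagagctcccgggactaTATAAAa

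The motifs were searched on both strands of the window from 250 bases before to 50 bases after the start. Of all 32851 promoters of that length in the table, 13.6% held TATAAA, the core of the TATA box, 25.4% held GATAA, which GATA factors bind, 14.7% held CATTCC, the MCAT element that TEAD factors bind, and 1.63% held the CArG box that SRF binds. All 7 genes had a RefSeq promoter. The *Nppa* window held 2 GATAA matches and the TATA match, and the *Nppb* window held those and 1 MCAT match. *Acta1* was the single member with a CArG match, and it also held an MCAT and a TATA match. *Ankrd1* held 2 MCAT matches and 1 GATAA match, *Myh6* 1 TATA and 1 MCAT match, the first of the *Myh7* windows 1 MCAT match, and *Xirp2* none. A match describes the letters of these windows, and no factor was measured on them.

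Across the 21 libraries the 7 genes spanned a wide range of level per length. In FPKM (counts scaled by exon length and by library total), the mean was 3646 for *Myh6*, 990 for *Ankrd1*, 865 for *Acta1*, 358 for *Nppb*, 279 for *Nppa*, 246 for *Myh7* and 59.9 for *Xirp2*. *Myh6* ranked 12 among all genes and *Xirp2* ranked 525, so none was near the detection limit. In Control hearts the order was *Myh6*, *Acta1*, *Ankrd1*, *Nppb*, *Nppa*, *Myh7* and *Xirp2*, and the ranges of *Nppb* and *Nppa* overlapped there, as did those of *Nppa* and *Myh7* and those of *Myh7* and *Xirp2*. In DOX hearts *Acta1* fell to the level of *Nppb*, *Myh7* and *Nppa*, and the ranges of these 4 genes overlapped. In Tb and Tb-DOX hearts *Myh6* stayed the highest, without overlap with any other member, and in Tb-DOX *Xirp2* (31.1 to 40.9 FPKM) lay below all others, whereas the ranges in between overlapped.

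**Figure D1:**
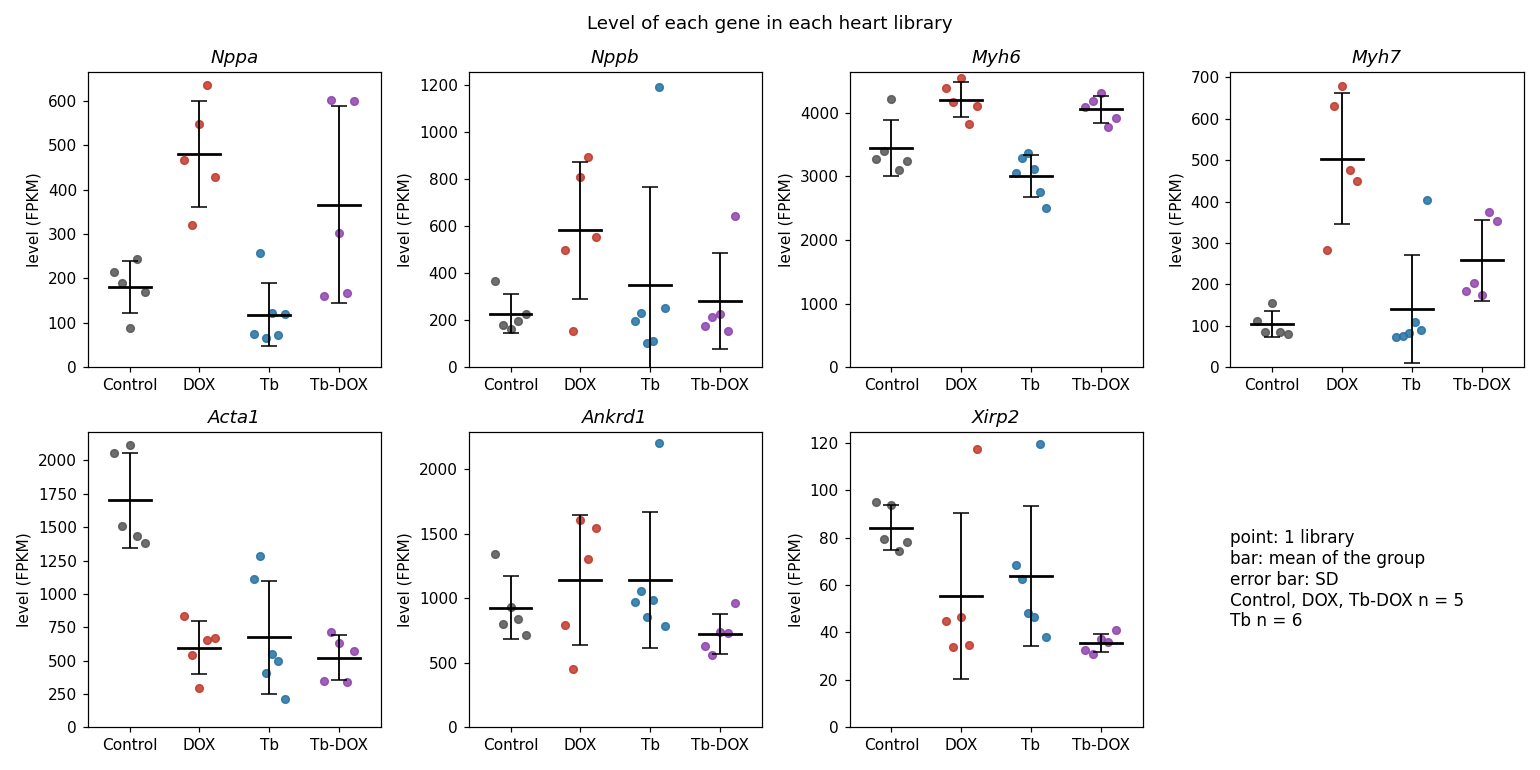
Level in FPKM (linear axis from 0) of each of the 7 genes in each heart library, grouped as Control (n = 5), DOX (n = 5), Tb (n = 6) and Tb-DOX (n = 5), with points for libraries, a bar for the mean and error bars for the SD. *Nppa* and *Myh7* lie higher and *Acta1* lower in DOX than in every Control library, and single Tb libraries lie far above the rest for *Nppb* (1191), *Myh7* (404.4), *Ankrd1* (2198) and *Xirp2* (119).

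The first comparison asked what DOX changed in hearts without a tumor. *Nppa*, *Myh7* and *Myh6* rose, *Acta1* fell, and *Nppb*, *Ankrd1* and *Xirp2* did not pass the test, so the members did not move as 1 block. The fit was edgeR's quasi-likelihood test over all 4 groups with Benjamini-Hochberg adjustment over the 13990 genes, and a gene was called at an adjusted p below 0.05. It called 4 of 7 members (3 higher, 1 lower), against 36.2% of all genes tested (18.0% higher, 18.2% lower). With a log2 fold change of 1 or more in size as well it called 3 of 7, against 9.95% of all genes, and the groups did not overlap for 3 of 7, against 25.2% of all genes. The median absolute log2 fold change was 1.35 over the members and 0.35 over all genes tested.

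*Nppa*, which encodes the atrial peptide, was at 214, 191, 88.7, 244 and 170 FPKM in the Control hearts and at 468, 320, 548, 637 and 428 FPKM in the DOX hearts. Every DOX library lay above every Control library. The fitted log2 fold change was 1.52 ± 0.41 (SE; 2.87-fold; adjusted p = 0.00617), and the exact two-sided permutation test on log2(FPKM + 0.1) gave p = 0.00794, the smallest that 5 against 5 libraries allow. The call held without any 1 of the 21 libraries (log2 fold change 1.34 to 1.66).

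*Myh7*, the slow beta myosin heavy chain, gave the largest fold change of the 7. It was at 111, 84.4, 155, 85.3 and 80.5 FPKM in Control and at 282, 631, 680, 477 and 451 FPKM in DOX, with no overlap. The log2 fold change was 2.43 ± 0.39 (5.38-fold; adjusted p = 8.82e-05 by edgeR), larger in size than that of 98.4% of all genes tested. *Myh6*, the fast alpha chain that dominates the adult mouse ventricle, also rose, from 3271, 3405, 4216, 3102 and 3239 FPKM in Control to 4388, 4167, 4538, 3826 and 4100 FPKM in DOX. Control replicate 3 lay within the DOX range, and the other 4 Control libraries lay below it. Its log2 fold change was 0.43 ± 0.11 (adjusted p = 0.00341 by edgeR), and it was 0.29 (adjusted p = 0.0218) with library totals in place of TMM factors, a scaling that moved the median of all genes to -0.14 in this comparison, 0.18 in Tb-DOX against DOX and 0.14 in the interaction.

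The 2 myosin genes were also compared within each library, where scaling between libraries cancels. *Myh7* made up 3.30, 2.42, 3.55, 2.68 and 2.43% of the summed FPKM of *Myh6* and *Myh7* in Control and 6.04, 13.1, 13.03, 11.1 and 9.91% in DOX. The mean share was 2.88 ± 0.52% (SD, n = 5) in Control and 10.6 ± 2.91% (n = 5) in DOX (difference 7.77 percentage points; exact permutation p = 0.00794; 0.0317 after Benjamini-Hochberg adjustment over the 12 tests of 3 ratios in 4 comparisons). *Myh6* thus remained the main chain in every library, and its own level did not go down while the share of *Myh7* went up. The 2 chains are near-identical in long stretches, and how reads that fit both were counted is not given in the sources used here.

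*Acta1*, the skeletal actin that the early heart uses, went in the other direction. It was at 2058, 1512, 2117, 1437 and 1380 FPKM in Control and at 831, 544, 292, 655 and 670 FPKM in DOX, with a wide gap between the groups. Its log2 fold change was -1.35 ± 0.38 (2.54-fold lower; adjusted p = 0.00908 by edgeR; exact permutation p = 0.00794). *Actc1*, the cardiac actin, was at 1864 ± 106 FPKM in Control and 2229 ± 534 FPKM in DOX (log2 fold change 0.41, adjusted p = 0.103). The *Acta1* share of both actins was 47.3 ± 4.75% in Control and 20.9 ± 3.91% in DOX (exact permutation p = 0.00794, adjusted 0.0317), and no libraries overlapped. The 2 actin genes are also near-identical in their coding sequence, which leaves their split uncertain in the same way. Skeletal muscle markers did not move together in DOX. Of 7 fast markers that passed the filter, *Myl1*, the most abundant, fell (37.8 to 16.2 FPKM; log2 fold change -1.08, adjusted p = 0.00174) and *Mylpf* rose (0.924 to 1.85 FPKM; 1.13, adjusted p = 0.0151). The other 5 had log2 fold changes of 0.84 (*Tnni2*) to 1.95 (*Myh4*) that did not pass, and the slow marker *Tnnt1* rose (0.53, adjusted p = 0.0272). The 11 fast markers, *Myl1* included, summed to 58.1 to 139 CPM in Control and 49.8 to 67.6 CPM in DOX, with *Myh1* and *Myh2* at group means of 0.0100 to 0.0400 FPKM. The part of other muscle in the *Acta1* result was not tested.

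*Nppb*, which encodes the B-type peptide, was at 368, 181, 160, 196 and 227 FPKM in Control and at 498, 152, 806, 894 and 552 FPKM in DOX. In DOX 4 of 5 libraries lay above all Control libraries, and DOX replicate 2 lay below all of them. The log2 fold change was 1.48 ± 0.61 (95% interval 0.22 to 2.73), close to that of *Nppa*, but the adjusted p was 0.0611 by edgeR and the exact permutation p was 0.0556. Without Tb replicate 5, whose *Nppb* level was 1191 FPKM, the adjusted p was 0.00699, and with the 2 groups alone it was 0.00558. It also passed the threshold without DOX replicate 2 (0.0334), Tb-DOX replicate 5 (0.0473) and Control replicate 1 (0.0497).

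*Ankrd1*, a stress-induced protein of the sarcomere and nucleus, was at 1340, 800, 934, 841 and 718 FPKM in Control and at 789, 450, 1608, 1300 and 1545 FPKM in DOX. The DOX libraries were spread on both sides of the Control range, with a log2 fold change of 0.42 ± 0.31 (adjusted p = 0.307 by edgeR; exact permutation p = 0.635). The fold change was 0.28 (adjusted p = 0.530) without DOX replicate 5 and 0.61 without DOX replicate 2. Over the alternatives other than leaving out single libraries it ran from 0.17 to 0.43. *Xirp2*, an actin-binding protein of the intercalated disc, was at 95.1, 79.3, 93.7, 74.5 and 78.1 FPKM in Control and at 44.7, 34.1, 46.3, 34.7 and 117 FPKM in DOX. Here 4 DOX libraries lay below every Control library and DOX replicate 5 above every one. The log2 fold change was -0.46 ± 0.31 (adjusted p = 0.264 by edgeR; exact permutation p = 0.0476, unadjusted), and without DOX replicate 5 it was -0.94 (adjusted p = 0.00723). It also passed the threshold with the atrial marker sum as a covariate (-0.86, adjusted p = 0.0306) and by limma (-0.77, adjusted p = 0.0406).

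**Figure D2:**
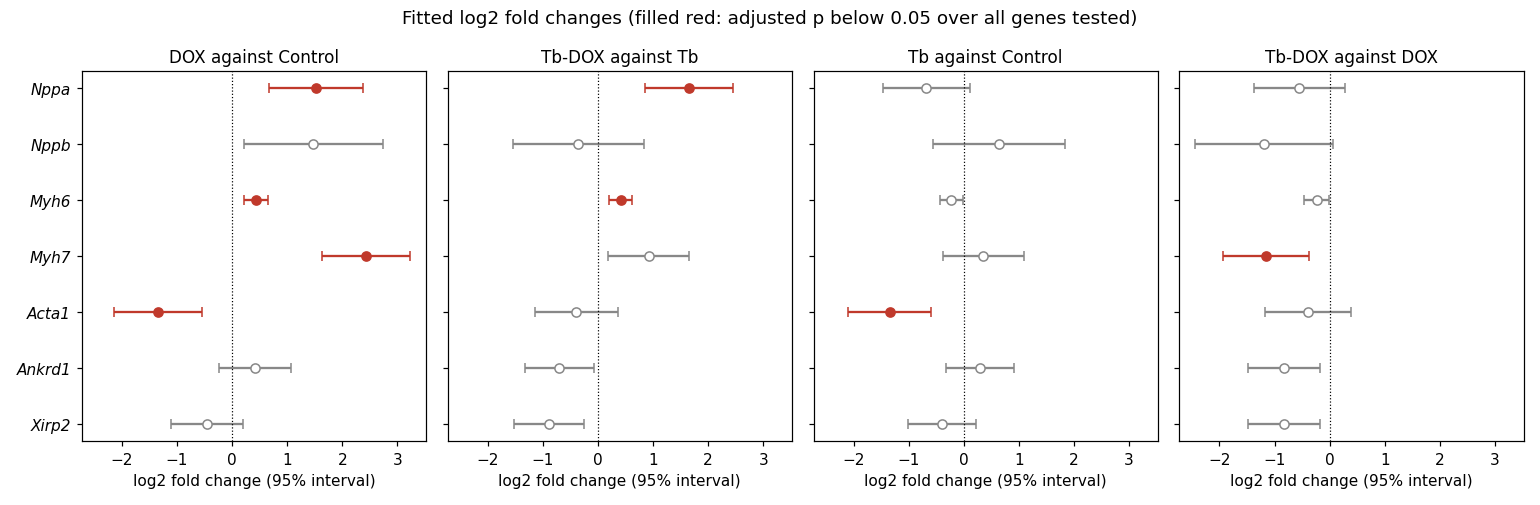
Fitted log2 fold change of each gene with its 95% interval (horizontal axis) in 4 comparisons, with filled red points where the adjusted p over all genes tested was below 0.05. Without a tumor, DOX gave 1.52 for *Nppa*, 2.43 for *Myh7* and -1.35 for *Acta1*, and in tumor-bearing hearts the called values were 1.65 for *Nppa* and 0.42 for *Myh6*.

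The second comparison asked what DOX changed in tumor-bearing hearts. *Nppa* and *Myh6* rose, and the other 5 genes did not pass the test. This was 2 of 7 members (2 higher), against 4.72% of all genes tested (2.18% higher, 2.54% lower), and 1 of 7 with a log2 fold change of at least 1, against 1.11%. The median absolute log2 fold change was 0.70 over the members and 0.19 over all genes.

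*Nppa* was at 66.2 to 256 FPKM in the 6 Tb hearts (median 97.4) and at 160, 602, 302, 168 and 601 FPKM in the Tb-DOX hearts. The Tb-DOX hearts fell into a lower pair and 3 higher ones, and Tb replicate 2 (256 FPKM) lay between these, whereas the other 5 Tb hearts lay below all Tb-DOX hearts. The log2 fold change was 1.65 ± 0.39 (3.14-fold; adjusted p = 0.0179 by edgeR; exact permutation p = 0.0216). The call was lost without Tb-DOX replicate 2 (1.40, adjusted p = 0.0597), without Tb-DOX replicate 5 (1.38, adjusted p = 0.0655) and with the 2 groups alone (adjusted p = 0.0690), and the value without Tb replicate 2 was 2.04.

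*Nppa* is also the gene that atrial muscle makes in large amounts, so the markers of atria were read beside it. The 5 atrial markers (*Myl4*, *Myl7*, *Sln*, *Bmp10*, *Kcnj3*), led by *Myl7*, summed to 132 to 269 CPM in Control, 51.7 to 192 in DOX, 55.5 to 153 in Tb and 67.9 to 184 in Tb-DOX. With DOX none of the 4 markers that passed the filter was higher in either state, 1 (*Kcnj3*) was lower without a tumor, and *Bmp10* was at group means of 0.0117 to 0.0760 FPKM. Within groups, libraries with more atrial marker RNA had more *Nppa* (Pearson r = 0.605 of deviations from the group mean over 21 libraries, permutation p = 0.00741, 0.0519 after adjustment over 28 relations; Spearman rho = 0.666, permutation p = 0.00387; r = 0.681 without the 2 libraries farthest on the marker axis and 0.544 without the 2 farthest in *Nppa*). Tb-DOX replicates 2 and 5, the highest in *Nppa*, had 184 and 171 CPM of these markers, and the other 3 had 67.9 to 91.7. With the summed atrial markers as a covariate, *Nppa* stayed higher, with a log2 fold change of 2.03 (adjusted p = 0.000347) in DOX against Control and 1.40 (adjusted p = 0.0151) in Tb-DOX against Tb.

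*Myh6* was at 2495 to 3371 FPKM in Tb (median 3080) and at 4090, 4176, 4303, 3778 and 3910 FPKM in Tb-DOX. The groups did not overlap, which held for 4.30% of all genes tested, and the log2 fold change was 0.42 ± 0.10 (adjusted p = 0.0211 by edgeR; exact permutation p = 0.00216, the smallest that 6 against 5 libraries allow). That call was lost with the 2 groups alone and without each of Tb-DOX replicates 1, 2, 3 and 5 (0.39 to 0.41). Of 6 cardiomyocyte markers, 3 (*Tnnt2*, *Actn2* and *Pln*) were called higher and 0 lower in DOX, against 18.0% and 18.2% of all genes, and 2 (*Tnnt2* and *Actn2*) higher and 0 lower in Tb-DOX, against 2.18% and 2.54%. *Actc1* and *Tnni3* passed in neither state, nor did *Ryr2* (-0.13 and -0.24), and the sum of the 6 was 22983 to 31764 CPM in Control, 34839 to 43388 in DOX, 22949 to 27046 in Tb and 30104 to 37135 in Tb-DOX.

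*Myh7* was at 73.3 to 404.4 FPKM in Tb (median 86.6) and at 184, 203, 174, 376 and 353 FPKM in Tb-DOX. Of the Tb hearts 5 lay between 73.3 and 110, below every Tb-DOX heart, and Tb replicate 6 lay above every one. With it the log2 fold change was 0.92 ± 0.35 (adjusted p = 0.137 by edgeR), and without it 1.53 (adjusted p = 0.000627). The share of *Myh7* in both myosins went the same way: its mean was 4.59 ± 4.61% in Tb (median 2.79%, Tb replicate 6 at 13.9%) and 6.03 ± 2.43% in Tb-DOX, a difference of 1.44 percentage points (exact permutation p = 0.606), and without Tb replicate 6 the difference was 3.31 percentage points (exact permutation p = 0.00794). That library was also the lowest of the Tb hearts in *Myh6* (2495 FPKM) and *Acta1* (216 FPKM).

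*Acta1* was at 216 to 1286 FPKM in Tb (median 521) and at 351, 712, 631, 341 and 571 FPKM in Tb-DOX, all within the Tb range (log2 fold change -0.39, 95% interval -1.14 to 0.36, adjusted p = 0.588). That value ran from -0.58 (without Tb replicate 6) to -0.11 (without Tb replicate 2) when single libraries were left out. *Nppb* was at 103 to 1191 FPKM in Tb (median 214) and at 174, 214, 224, 155 and 643 FPKM in Tb-DOX, and the medians of the groups were alike. Its log2 fold change was -0.36 (95% interval -1.54 to 0.83, adjusted p = 0.774), and it was 0.72 (adjusted p = 0.338) without Tb replicate 5, -0.95 without Tb-DOX replicate 5 and 0.0630 by limma, so neither its direction nor its size was settled. *Ankrd1* was at 783 to 2198 FPKM in Tb (median 981) and at 628, 561, 739, 729 and 963 FPKM in Tb-DOX (log2 fold change -0.70, adjusted p = 0.192 by edgeR; exact permutation p = 0.0281, unadjusted), and without Tb replicate 5 the value was -0.34 (adjusted p = 0.467). *Xirp2* was at 38.1 to 119 FPKM in Tb (median 55.4) and at 32.4, 31.1, 37.2, 36.0 and 40.9 FPKM in Tb-DOX, a narrow range at the lower end of the Tb hearts (log2 fold change -0.89, adjusted p = 0.0961 by edgeR; exact permutation p = 0.0130, unadjusted). The *Xirp2* value was -0.56 (adjusted p = 0.215) without Tb replicate 5, and it passed the threshold without Tb replicate 6 (-1.02, adjusted p = 0.0439), without DOX replicate 5 (-0.89, adjusted p = 0.0291) and by DESeq2 (-0.90, adjusted p = 0.0351).

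Whether the DOX effect differed with a tumor was tested by the interaction, the log2 fold change in tumor-bearing hearts minus that in the others. It called 0 of 7 members, against 8.94% of all genes tested (3.95% higher, 5.0% lower, and 3.89% with a log2 value of 1 or more in size), and limma and DESeq2 gave 0 and 0 calls. At an unadjusted p below 0.05 there were 3 of 7 members, against 4041 of all 13990 genes tested. For *Nppa* the difference was 0.13 (95% interval -1.02 to 1.28; -0.14 to 0.52 without single libraries, the highest without Tb replicate 2) and for *Myh6* it was -0.01 (-0.31 to 0.29). The nearest to the threshold were *Myh7* (-1.51, 95% interval -2.57 to -0.44, adjusted p = 0.0651), *Ankrd1* (-1.12, adjusted p = 0.0966) and *Nppb* (-1.83, adjusted p = 0.150). The call of *Myh7* in hearts without a tumor and its absence in tumor-bearing hearts was therefore not shown to be a difference between the states, and without Tb replicate 6 the *Myh7* interaction was -0.90 (adjusted p = 0.0824). It passed the threshold without Tb replicate 1 (-1.63, adjusted p = 0.0430), Tb replicate 2 (-1.63, adjusted p = 0.0483) and DOX replicate 1 (-1.65, adjusted p = 0.0461). The *Ankrd1* interaction was -0.77 (adjusted p = 0.165) without Tb replicate 5 and -1.32 (adjusted p = 0.0438) without DOX replicate 2, and that of *Nppb* was -0.77 (adjusted p = 0.426) without Tb replicate 5 and -2.42 without Tb-DOX replicate 5, which was not called. For *Xirp2* it was -0.43 with all libraries and 0.0455 without DOX replicate 5.

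The tumor itself was compared with no tumor in hearts without DOX. *Acta1* fell and no other member passed the test, which was 1 of 7 members (lower), against 6.28% of all genes tested (5.0% higher, 1.29% lower). Its fold change passed 1 on the log2 scale as well, which 3.6% of all genes did. The *Acta1* level of 216 to 1286 FPKM in Tb lay below all 5 Control hearts (1380 to 2117 FPKM), a lack of overlap found for 5.73% of all genes. Its log2 fold change was -1.35 ± 0.36 (adjusted p = 0.0267 by edgeR; exact permutation p = 0.0130), about the size seen with DOX, and the call was lost in 8 of 32 alternatives, among them the atrial covariate (-1.08, adjusted p = 0.218) and the fits without Tb replicate 3, 4 or 5 or Control replicate 1 or 3 (adjusted p 0.0552 to 0.0667). The share of *Acta1* in both actins was 27.3 ± 9.36% in Tb (n = 6) against 47.3 ± 4.75% in Control, a difference of -20.0 percentage points (exact permutation p = 0.00649, adjusted 0.0317) that held without each library. For the other 6 genes the log2 fold change lay between -0.68 (*Nppa*, adjusted p = 0.315) and 0.64 (*Nppb*, adjusted p = 0.544), and *Nppb* was -0.42 without Tb replicate 5. *Nppa* was at -1.07 without Tb replicate 2 (adjusted p = 0.0755) and at -0.54 without Control replicate 4. Over the alternatives other than leaving out single libraries it ran from -0.77 to -0.0782. *Xirp2* moved from -0.40 to -0.72 without Tb replicate 5 (adjusted p = 0.132) and to -0.26 without Tb replicate 6. Direction also turned for *Ankrd1* (0.29, and -0.0563 without Tb replicate 5) and *Myh7* (0.35, and -0.25 without Tb replicate 6).

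Among DOX-treated hearts, the tumor-bearing ones had less *Myh7*. This was 1 of 7 members (lower), against 17.5% of all genes tested (9.52% higher, 7.93% lower), and 1 of 7 against 5.62% with a log2 fold change of 1 or more in size. The groups overlapped for all 7 members, whereas they did not for 15.8% of all genes. The 5 Tb-DOX hearts (174 to 376 FPKM) lay below the median DOX heart (477 FPKM), with an overlap through DOX replicate 1 (282 FPKM). The log2 fold change was -1.15 ± 0.37 (adjusted p = 0.0360 by edgeR; exact permutation p = 0.0317), and the call was lost in 11 of 32 alternatives, among them library totals (-0.97, adjusted p = 0.0871) and the fits without DOX replicate 2, 3 or 4 or Tb-DOX replicate 1, 2 or 3 (adjusted p 0.0547 to 0.0885). The share of *Myh7* in both myosins was 4.61 percentage points lower in Tb-DOX (exact permutation p = 0.0397, adjusted 0.119). *Ankrd1* (-0.82) and *Xirp2* (-0.83) missed the threshold at adjusted p = 0.0735 and 0.0736, and *Nppa* (-0.55) and *Nppb* (-1.19) had adjusted p of 0.357 and 0.176. When single libraries were left out, the *Nppa* value ran from -0.82 (without Tb-DOX replicate 5) to -0.35 (without Tb-DOX replicate 4). Without Tb replicate 5, *Ankrd1* (adjusted p = 0.0185), *Xirp2* (0.0222) and *Nppb* (0.0399) passed the threshold at the same fold changes. Without Tb-DOX replicate 5 the *Nppb* value was -1.78 and was not called. *Ankrd1* passed it without DOX replicate 2 as well (-1.01, adjusted p = 0.0226), whereas *Xirp2* was -0.35 (adjusted p = 0.335) without DOX replicate 5. DOX and Tb-DOX, like Control and Tb, each serve in more than 1 comparison, so these comparisons share libraries.

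**Figure D3:**
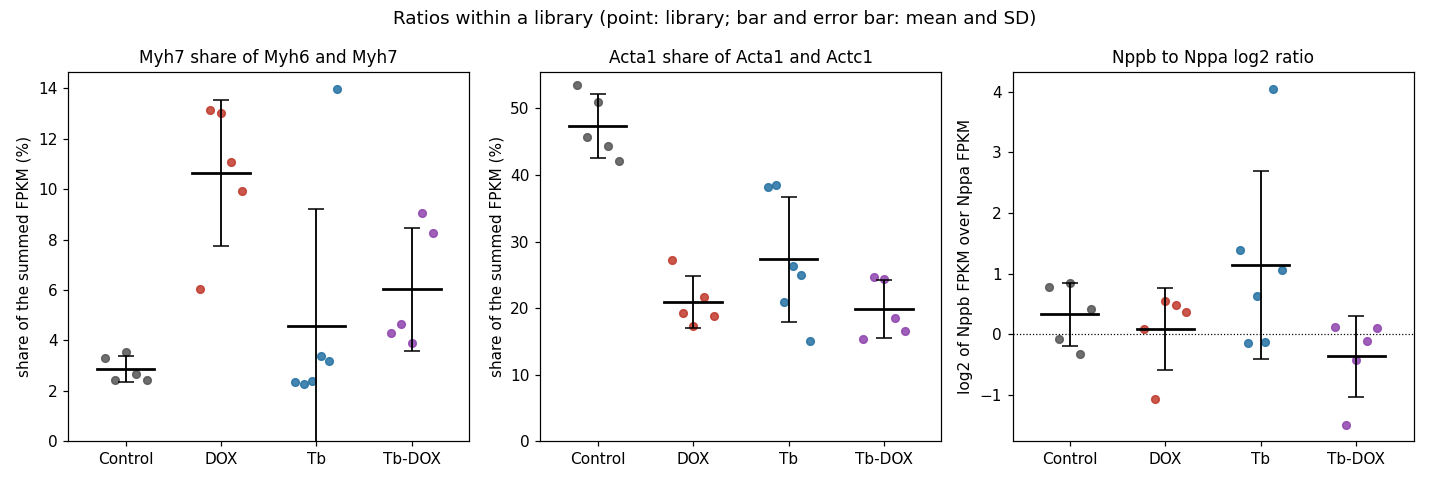
Within-library ratios by group: the share of *Myh7* in the summed FPKM of *Myh6* and *Myh7* (%), the share of *Acta1* in that of *Acta1* and *Actc1* (%), and the log2 ratio of *Nppb* to *Nppa*, with points for libraries and bars for the mean and SD. The *Myh7* share is 2.42 to 3.55% in Control and 6.04 to 13.1% in DOX, the *Acta1* share of Control (42.2 to 53.5%) lies above all other groups, and Tb replicate 5 has the highest log2 ratio of *Nppb* to *Nppa* (4.05).

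The natriuretic peptide genes were also set against each other within each library. The log2 ratio of *Nppb* to *Nppa* FPKM was 0.33 ± 0.52 in Control, 0.09 ± 0.67 in DOX, 1.14 ± 1.55 in Tb and -0.36 ± 0.67 in Tb-DOX. None of the 4 comparisons passed after adjustment, and the nearest was Tb-DOX against Tb (-1.50, exact permutation p = 0.0498, adjusted 0.119), where Tb replicate 5 stood at 4.05 and the difference without it was -0.92. Without DOX replicate 2 the difference was 0.0454 in DOX against Control (exact permutation p = 0.857) and -0.74 in Tb-DOX against DOX (exact permutation p = 0.0476, unadjusted). Within groups, the deviations of *Nppb* and *Nppa* from their group means correlated at r = 0.365 (permutation p = 0.133, adjusted 0.339; rho = 0.488, permutation p = 0.0288; r = 0.389 without the 2 libraries farthest in *Nppa* and 0.578 without the 2 farthest in *Nppb*). The deviations of *Nppb* and *Ankrd1* from their group means correlated at r = 0.836 over the 21 libraries (permutation p = 0.00045, adjusted 0.0126 over 28 relations; Spearman rho = 0.662, permutation p = 0.0020), and at 0.665 without the 2 libraries farthest in *Nppb*. Those of *Ankrd1* and *Xirp2* correlated at r = 0.719 (permutation p = 0.00244, adjusted 0.0342; rho = 0.653, permutation p = 0.00215; 0.583 without 2 libraries), and *Myh6* and *Acta1* at r = 0.670 (permutation p = 0.00427, adjusted 0.0399; rho = 0.525, permutation p = 0.0180). The last of these was 0.374 without 2 libraries, so it rested on them.

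**Figure D4:**
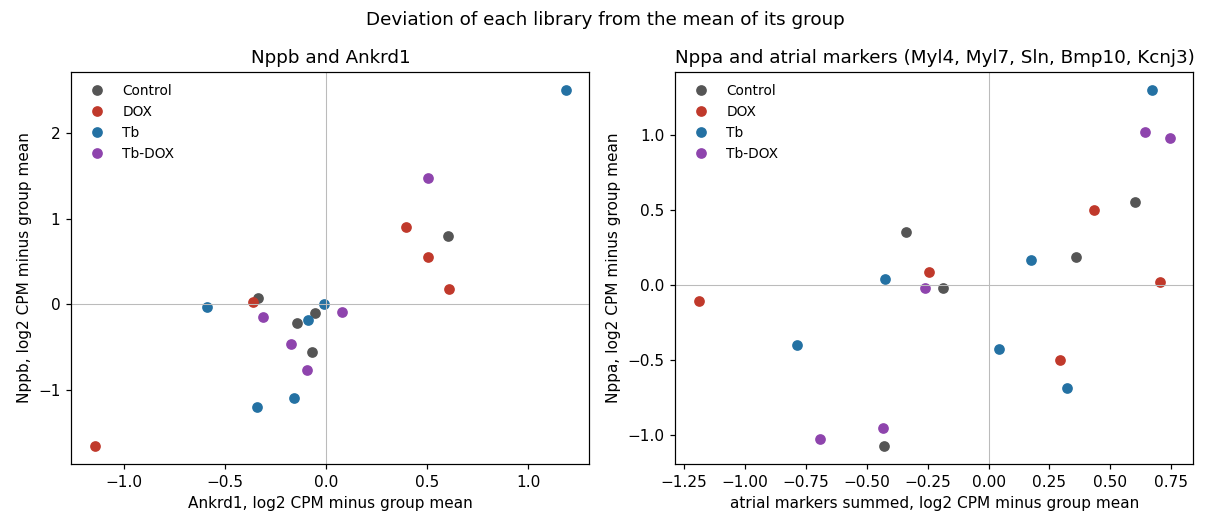
Deviation of each of the 21 libraries from the mean of its group in log2 CPM: *Nppb* against *Ankrd1* (left) and *Nppa* against the summed atrial markers (right), coloured by group. Libraries high in *Ankrd1* for their group are high in *Nppb* (r = 0.836), with Tb replicate 5 at the upper right and DOX replicate 2 at the lower left, and those high in atrial markers tend to be high in *Nppa* (r = 0.605).

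By the Spearman correlation of log2 CPM over the 21 libraries, which mixes the groups' differences with the spread inside them, the gene most like *Nppa* among 5668 well expressed genes was *Clic5* (rho = 0.921), and *Cyp2d22* reached 0.831. On deviations from the group means it was again *Clic5* (0.730), then the atrial light chain *Myl4* (0.722) and *Sln* (0.678). The genes most like *Nppb* were *Usp28* (0.834), *Paxbp1* (0.813) and *Hbegf* (0.813), and on deviations *Ccn1* (0.843) led. *Ankrd1* was most like *Cavin4* (0.895), *Rasl11b* (0.865) and *Synpo2l* (0.840), and on deviations like *Nrap* (0.894), genes of caveolae and the sarcomere among them. *Myh6* was most like *Mast2* (0.942), *Car14* (0.917) and the Z-disc actinin *Actn2* (0.912), *Myh7* like *Gm6136* (0.957), *Tnrc6a* (0.942) and *Tns1* (0.942), *Acta1* like the mitochondrial genes *Ndufv3* (0.921) and *Tufm* (0.875) and like *Chpt1* (0.873), and *Xirp2* like *Arhgef12* (0.897), *Otud1* (0.890) and *Ppid* (0.864).

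The rest of the natriuretic peptide pathway was read from a list of 14 genes, of which 12 passed the filter. With DOX and no tumor 2 of 12 rose and 5 fell, against 18.0% of all genes tested called higher and 18.2% lower. Among those that fell were *Pcsk6*, a proprotein convertase (10.8 ± 0.803 to 3.17 ± 0.985 FPKM; log2 fold change -1.63, adjusted p = 5.08e-05), and *Pde5a*, a phosphodiesterase that breaks down cGMP (-0.73, adjusted p = 0.00689). The receptor genes *Npr1* (-0.53, adjusted p = 0.0135) and *Npr2* (-0.45, adjusted p = 0.0211) and the peptidase gene *Mme* (-0.66, adjusted p = 0.0147) fell as well. *Furin*, a convertase that cleaves the B-type precursor, rose (0.81, adjusted p = 0.00143), as did the peptidase gene *Ide* (0.40, adjusted p = 0.0015). *Corin*, the protease that activates the atrial peptide, was at 41.9 ± 6.93 FPKM in Control and 38.8 ± 10.3 FPKM in DOX (log2 fold change 0.03, adjusted p = 0.926). FPKM are scaled by library totals and fitted fold changes by TMM factors, so small changes can differ in sign between them, here and below. In tumor-bearing hearts, where 4.72% of all genes were called, DOX called 0 of these 12 genes by edgeR, 0 by limma and 2 by DESeq2, with *Pcsk6* (-0.77, adjusted p = 0.0556) the nearest. At an unadjusted p below 0.05 there were 2 of 12, against 2855 of all 13990 genes tested. Without Tb replicate 5 the same comparison called 1 higher and 1 lower, an alternative for the lists chosen after seeing the data.

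Of 10 other genes of the fetal side, 7 passed the filter, and with DOX and no tumor 1 rose (*Slc2a1*, the glucose transporter of the early heart, 0.83, adjusted p = 0.0168) and 2 fell (*Hcn4*, the pacemaker channel, -1.12, adjusted p = 0.00253, and *Ckb*, the brain creatine kinase, -0.57, adjusted p = 0.00316). Of 7 other genes of the adult side, 2 rose (*Pln*, which restrains the calcium pump, 0.36, adjusted p = 0.00702, and *Slc2a4*, the insulin-dependent glucose transporter, 0.35, adjusted p = 0.0100) and none fell. The 3 of 7 and 2 of 7 called stand beside 36.2% of all genes tested. In tumor-bearing hearts, where 4.72% of all genes tested were called, DOX called 0 genes of either list by edgeR and by limma, and 0 and 1 by DESeq2. At an unadjusted p below 0.05 there were 1 of 7 and 2 of 7, against 2855 of all 13990 genes tested.

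The relatives of *Ankrd1* and *Xirp2* and other Z-disc and stretch genes, 15 genes that all passed the filter, were read beside the members. With DOX and no tumor 6 of 15 rose and 1 fell (18.0% and 18.2% of all genes tested), led by *Fhl1*, a LIM protein of the sarcomere (42.9 ± 12.1 to 185 ± 49.6 FPKM; log2 fold change 2.23, adjusted p = 0.00243), *Xirp1*, the closest relative of *Xirp2* (28.3 ± 3.44 to 112 ± 59.8 FPKM; 2.11, adjusted p = 0.0108), and *Ccn2*, a connective tissue growth factor (1.96, adjusted p = 0.0108). In tumor-bearing hearts 0 rose and 1 fell (2.18% and 2.54% of all genes tested). The gene that fell was *Ccn1*, a secreted matrix protein (-3.03, adjusted p = 0.0167). In this comparison limma called 0 and DESeq2 called 2, and 3 of 15 were below an unadjusted p of 0.05, against 2855 of all 13990 genes tested. *Ccn1* was at 266.6 FPKM in Tb replicate 5 and at 15.4 to 23.4 FPKM in the other 5 Tb hearts, against 6.98 to 9.33 FPKM in Tb-DOX. Without Tb replicate 5 its log2 fold change was -1.26 (adjusted p = 0.0101), so the call held at a smaller size.

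The interaction was called lower for 7 of 15 of these genes and higher for 0, against 5.0% and 3.95% of all genes (2 by limma, 9 by DESeq2). At an unadjusted p below 0.05 there were 10 of 15, against 4041 of all 13990 genes tested. The interaction was -3.26 for *Xirp1* (adjusted p = 0.0251) and -2.74 for *Fhl1* (adjusted p = 0.0251), and it was not called for *Ankrd1* or *Xirp2*. The sizes rested in part on Tb replicate 5, which was at 287.5 FPKM for *Xirp1* and 312.6 FPKM for *Fhl1*, whereas the other Tb hearts were at 21.4 to 34.8 and 34.3 to 52.6 FPKM. Without it the interaction was -1.78 (adjusted p = 0.00704) for *Xirp1* and -1.52 (adjusted p = 0.00145) for *Fhl1*. In that fit 6 of 15 genes were called lower and 0 higher, against 675 and 610 of all 13990 genes tested. In Tb-DOX against Tb, *Fhl1* turned from -0.51 (adjusted p = 0.599) to 0.71 (adjusted p = 0.0181) without that library. In DOX against Control 9 of 15 were then called higher and 0 lower, against 3025 and 2918 of all 13990 genes tested.

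Among 14 of 15 cardiac transcription factors and thyroid hormone receptor genes that passed the filter, 4 rose and 1 fell with DOX and no tumor, and 3 rose and 0 fell with a tumor. Over all genes tested 36.2% and 4.72% were called in these comparisons, so the first count is near the share of all genes. *Myocd*, the cofactor of SRF, rose in both states, from 5.52 ± 0.53 to 13.3 ± 2.65 FPKM without a tumor (log2 fold change 1.42, adjusted p = 4.35e-07) and by 0.65 (adjusted p = 0.00461) with one, and its DOX effect was smaller with a tumor (interaction -0.77, adjusted p = 0.0160). *Gata6* rose by 0.65 (adjusted p = 0.000200) and 0.48 (adjusted p = 0.0137). *Hand2* rose without a tumor (0.67, adjusted p = 0.0134) and was at 0.59 (adjusted p = 0.0823) with one, with an interaction of -0.09 (adjusted p = 0.866). *Thra*, the main thyroid hormone receptor of the heart, was at 0.15 (adjusted p = 0.354) without a tumor and rose with one (0.47, adjusted p = 0.0227), with an interaction of 0.32 (adjusted p = 0.203), so neither was shown to differ between the states. *Srf* itself was at 13.7 ± 3.23 FPKM in Control and 13.5 ± 1.62 FPKM in DOX (log2 fold change 0.12, adjusted p = 0.524).

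Both myosin genes lie on chromosome 14 on the minus strand, *Myh6* at chr14:55179378-55204384 and *Myh7* at chr14:55208141-55232083 (GRCm39), and each hosts a microRNA in an intron. The mature sequences from RefSeq (GRCm38.p6, minus strand, chr14:54949072-54949093 and chr14:54975710-54975731), shown because the hosts are the genes whose ratio moved, share the seed, bases 2 to 8, in capitals.
mmu-miR-208a-3p: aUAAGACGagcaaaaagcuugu
mmu-miR-208b-3p: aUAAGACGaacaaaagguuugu

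They differ at 3 positions, and mature microRNA is not measured by such libraries. *Mir208b*, in *Myh7*, was at 544 ± 98.1 FPKM in Control and 505 ± 192 FPKM in DOX (log2 fold change 0.04, adjusted p = 0.951), while its host gave a log2 fold change of 2.43. *Mhrt*, the antisense RNA of the *Myh7* locus, was at 43.0 ± 11.3 and 37.1 ± 10.7 FPKM (-0.07, adjusted p = 0.901). *Mir208a*, in *Myh6*, rose from 23.5 ± 12.6 to 52.6 ± 13.6 FPKM (1.31, adjusted p = 0.00705) on 14 to 86 counts per library. The counts of *Mir208b* and *Mhrt* amounted to 1.64% and 5.40% of those of the *Myh7* row and the counts of *Mir208a* to 0.0100% of those of the *Myh6* row, and without a stated strand setting reads of a gene and its antisense partner cannot be told apart.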

How the data were processed

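Heart RNA, enriched with oligo(dT) beads by the methods (the labels also allow rRNA depletion), was sequenced as 150-base read pairs (21 libraries, grouped by their labels). Reads were trimmed with Cutadapt 1.9.1, and the submitters' processing notes name HISAT2, HTSeq 0.6.1, DESeq2 1.34.0 and the build GRCm39. For every library, the 1 deposited table lists raw read counts as whole numbers and the authors' FPKM, and the deposited FPKM equal the count scaled by exon length and library total in 100% of values (tolerance 0.0051). Strand setting, and handling of reads that fit several genes, are not given in the sources used here.

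Counts of the 13990 genes whose mean FPKM reached 0.5 were fitted with edgeR 4.0.16 (R 4.3.3, TMM, 4 groups in 1 quasi-likelihood fit) and adjusted by Benjamini-Hochberg. Calls needed an adjusted p below 0.05. SEs follow from the F statistic. Single genes, on log2(FPKM + 0.1), and ratios of FPKM + 0.1 were tested by two-sided exact permutation (252 or 462 arrangements, smallest p 0.00794 and 0.00216), correlations by 100000 permutations within groups. Members, lists and tests were chosen with earlier results of these data known. Named were the 7 members, list genes called in Tb-DOX against Tb, up to 3 of the largest called changes per list in DOX against Control, the top marker of each list and the 3 most similar genes per member (1 of them is not reported here). Further names (*Npr1*, *Npr2*, *Mme*, *Corin*, *Srf*, *Actc1*, *Actn2*, *Kcnj3*, *Bmp10*, *Ide*, *Mylpf*, *Tnni2*, *Myh4*, *Tnni3*, *Ryr2* and genes overlapping members) were chosen after their values were seen. The fit was checked on simulated counts. Replicates differed by at least 5.33 in chi-square per degree of freedom, so none was a repeat deposit. Same-numbered libraries correlated at -0.219 to 0.194 across groups, so the numbers were not used as pairs.

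Alternatives were median-ratio factors, library totals, no filter, a mean FPKM of at least 5, robust moderation, a replicate block, an atrial covariate, 2 groups alone, limma 3.58.1 on log2(FPKM + 0.1), DESeq2 1.42.0, leaving out each library, and, chosen after seeing the data, leaving out Tb replicates 5 and 6. The lists were also read without Tb replicate 5, Tb replicate 6 or DOX replicate 5, likewise chosen after seeing the data. Markers of smooth muscle (led by *Acta2*), fibroblasts (*Dcn*), endothelium (*Pecam1*), ventricles (*Myl2*), slow skeletal muscle (*Tnnt1*), T cells (*Cd3e*) and germ cells (*Tnp1*) were also summed.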

Additional observations from a re-analysis of the deposited data

Results flagged for a closer look

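In 40 groups of libraries (7 genes and 3 ratios in 4 groups), the highest or lowest library was compared with its neighbour by Dixon's ratio, and 11 were marked. For normally distributed, independent values it marks about 1 in 20 groups by chance. The genes were read in FPKM without logarithm and the groups share genes and libraries, so the 11 cannot be set against that rate. Tb replicate 5 was the highest of its group in *Nppb* (1191 FPKM), *Ankrd1* (2198 FPKM), *Xirp2* (119 FPKM) and the log2 ratio of *Nppb* to *Nppa* (4.05). Tb replicate 6 was the highest in *Myh7* (404.4 FPKM) and in the *Myh7* share of both myosins (13.9%), and Tb replicate 2 was the highest in *Nppa* (256 FPKM). In the other groups the marked values were *Nppb* in Tb-DOX replicate 5 (643 FPKM), *Myh6* in Control replicate 3 (4216 FPKM), *Xirp2* in DOX replicate 5 (117 FPKM) and the log2 ratio of *Nppb* to *Nppa* in DOX replicate 2 (-1.07, the lowest of its group). For the difference in DOX effect between the tumor states, 0 of 7 members passed the interaction test.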

How the results depend on the processing

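Each library held 13521200 to 18601445 counts, and each group 5 or 6 libraries. Of 1113 alternative fits of the members' fold changes, 1022 kept direction and call, 27 lost the call, 36 gained it and 28 changed direction; all 28 were fold changes that had not passed the test. Each arm left with few libraries was assumed to vary like the other groups, and the causes of the changes below were not tested.

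With DOX and no tumor, 4 to 5 members were called without any 1 library. In Tb-DOX against Tb the count was 4 with the replicate block, 0 with the 2 groups alone and 1 with the fold threshold added, and it ranged from 0 (without Tb-DOX replicate 2 or 5) to 4 (without Tb replicate 6). In Tb against Control it was 0 with the atrial covariate, with the 2 groups alone and without Tb replicates 5 and 6 (0 to 1 without single libraries). In Tb-DOX against DOX it was 0 with library totals, with the stricter filter (mean FPKM of 5 or more), robust moderation and limma, 2 with the replicate block and DESeq2, 3 with no filter and 4 without Tb replicates 5 and 6 (0 to 4 without single libraries). For the interaction it was 1 with no filter (0 to 1 without single libraries).

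Without Tb replicates 5 and 6, an alternative chosen after seeing the data, the log2 fold change was 0.83 for *Nppb* in Tb-DOX against Tb, -0.53 for *Nppb* and -0.30 for *Myh7* in Tb against Control and -0.0141 for the *Nppa* interaction. The difference in *Myh7* share was then 3.43 percentage points in Tb-DOX against Tb (exact permutation p = 0.0238) and -0.27 in Tb against Control, that in *Acta1* share was -11.1 points in Tb-DOX against Tb (exact permutation p = 0.0397), and that in the log2 ratio of *Nppb* to *Nppa* was -0.80 (exact permutation p = 0.159). With the atrial covariate, *Ankrd1* was -0.0624 in Tb against Control, and the interactions of *Nppa* and *Xirp2* were -0.63 and 0.14. The *Myh6* interaction was 0.14 with library totals, 0.0479 with the stricter filter and 0.14 with limma, which also gave 0.0630 for *Nppb* in Tb-DOX against Tb and 0.0205 for the *Xirp2* interaction.

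Without single libraries, *Nppb* ranged from -0.95 to 0.72 in Tb-DOX against Tb and from -0.42 to 0.90 in Tb against Control, where *Myh7* ranged from -0.25 to 0.50 and *Ankrd1* from -0.0563 to 0.48. The interaction ranged from -0.14 to 0.52 for *Nppa*, -0.0860 to 0.0414 for *Myh6* and -0.57 to 0.0455 for *Xirp2*. The difference in *Myh7* share ranged from 0.69 to 3.31 points in Tb-DOX against Tb, from -0.16 to 2.18 in Tb against Control and from -5.76 to -3.98 in Tb-DOX against DOX. That in *Acta1* share ranged from -9.87 to -5.20 in Tb-DOX against Tb and from -2.16 to 0.64 in Tb-DOX against DOX. That in the log2 ratio of *Nppb* to *Nppa* ranged from -0.41 to 0.0454 in DOX against Control, from -1.76 to -0.92 in Tb-DOX against Tb and from -0.74 to -0.17 in Tb-DOX against DOX.

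Libraries shared only replicate numbers, and Tb replicate 6 was the single library with that number. The replicate block thus gave that library a term of its own and in effect left it out of the Tb values. Its *Myh7* values are therefore no separate check on those without Tb replicate 6 (1.53 in Tb-DOX against Tb and -0.25 in Tb against Control). With the replicate block *Myh7* rose in Tb-DOX against Tb (1.52, adjusted p = 0.00231 by edgeR) and was -0.28 in Tb against Control, *Nppb* rose (1.49, adjusted p = 0.0370) and *Xirp2* fell (-0.64, adjusted p = 0.0297) in DOX against Control, and *Xirp2* fell in Tb-DOX against Tb (-0.91, adjusted p = 0.0211) and in Tb-DOX against DOX (-0.68, adjusted p = 0.0412).

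Over all genes, 660 were called in Tb-DOX against Tb, against 351 with the 2 groups alone, 420 with limma, 1074 with DESeq2 and 1441 without Tb replicates 5 and 6. In Tb against Control 879 were called, against 469 with the block, 301 with the covariate and 455 without Tb replicates 5 and 6. The interaction called 1251, against 506 with the block, 325 with the covariate and 2036 with DESeq2, and Tb-DOX against DOX 2442, against 3676 without Tb replicates 5 and 6. Among the 5668 genes of the stricter filter, 2496 were called in DOX against Control (5071 with the usual filter), 334 in Tb against Control, 948 in Tb-DOX against DOX and 551 in the interaction, with fewer genes tested. Without single libraries the counts ranged from 260 (without Tb-DOX replicate 5) to 938 in Tb-DOX against Tb, 595 to 1204 in Tb against Control, 1755 to 3478 in Tb-DOX against DOX and 657 to 1721 in the interaction. With library totals the genes called higher and lower were 1423 and 3526 (2523 and 2548 with TMM) in DOX against Control, 2512 and 323 (1332 and 1110) in Tb-DOX against DOX, and 902 and 283 (552 and 699) in the interaction.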
